A study of Mus musculus with 2 samples.

Results

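The SR proteins and the heterogeneous nuclear ribonucleoproteins (hnRNPs) of the mouse were examined in long-read RNA-seq libraries of the hippocampus. Genes were taken by name, as protein-coding genes whose symbol starts with Srsf and a digit (SR genes) or with Hnrnp (hnRNP genes) and that have reads in both libraries. Of 33 genes matching by name, 31 were protein-coding, 11 SR genes and 20 hnRNP genes, and 2 were pseudogenes that were left out. The 31 genes are among 18595 annotated genes with reads. They held 3925 of 1330153 reads (0.295%) in replicate 1 and 4195 of 1366252 reads (0.307%) in replicate 2, on 516 and 536 transcript models. At least 20 reads in each library were found for 27 of them, and Hnrnpa0, Hnrnph3, Hnrnpl and Hnrnpul1 had fewer.

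The series has 1 group of 2 libraries, made from total RNA of the hippocampus layer of adult B6NCrl mice, a C57BL/6 strain, aged 6 months. The sample description says male, while the sex field was left uncollected, and the labels name no mutation and no treatment. The libraries are numbered as biological replicates 1 and 2 and come from separate tissue samples, but the same donor identifier is given for both. The p-values of Fisher's exact test below set the difference between these libraries against counting error only. They do not measure a spread between animals, and a difference may be technical.

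SR proteins carry RNA-recognition motifs and a domain rich in arginine and serine, bind exonic enhancers and recruit the spliceosome to nearby splice sites. Many hnRNPs bind exonic or intronic silencers and repress splicing, and several also act in mRNA export, stability and translation. Many genes of both families regulate themselves through poison exons, which carry an in-frame stop codon and send the transcript to nonsense-mediated decay (NMD), or through retained introns and spliced 3′ untranslated regions with the same outcome.

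Each read was assigned by the authors to a TALON transcript model, a chain of exons that is either annotated (GENCODE M21, mouse build mm10), an incomplete stretch of an annotated chain, a new combination of known splice sites, a chain with a new splice site, or genomic, meaning a read without the expected splicing. A long read stands for 1 cDNA molecule, so levels are given as reads per 1000000 library reads (CPM) and were not divided by gene length; 1 read is 0.752 CPM in replicate 1 and 0.732 CPM in replicate 2. Neuron markers summed to 2862 and 3610 CPM, dentate granule cell markers to 565 and 700 CPM, and oligodendrocyte markers to 4149 and 5489 CPM, all markers of the labelled tissue having reads. Choroid plexus markers summed to 13868 and 311 CPM, with 4 of 4 markers called higher in replicate 1. Meninges markers summed to 1195 and 2855 CPM, of which Ptgds alone gave 1073 and 2680 CPM. Ptgds was the only 1 of these 3 markers called, and it was higher in replicate 2. Of the 3 neuron markers, 2 were called higher in replicate 2, while glutamatergic markers, at 749 and 693 CPM, had no call. The libraries therefore differed in markers of non-neuronal cells and in some neuronal markers. The part of this in any difference reported here was not tested. In bulk tissue, fewer cells of a type and less RNA per cell cannot be told apart.

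All 31 genes were read, over a 95.5-fold range of mean levels, from 7.01 CPM for Hnrnpul1 to 669.5 CPM for Hnrnpk. Hnrnpk, a KH-domain protein that binds C-rich RNA, had 791 reads in replicate 1 and 1017 in replicate 2, or 595 and 744 CPM. Hnrnpa1, a repressor that counteracts SR proteins at many exons, had 406 and 320 reads, or 305 and 234 CPM. Srsf3, the smallest SR protein, had 377 and 336 reads, or 283 and 246 CPM. Together with Hnrnpu, a nuclear scaffold attachment protein with 250 and 254 reads, and Hnrnpc, which binds U-rich tracts and has 245 and 249 reads, they were the 5 highest genes in both libraries and held 52.7% and 51.9% of the reads of all 31. Hnrnpk alone held 20.2% and 24.2%.

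Summed over the 11 SR genes, the level was 807 and 818 CPM (812 ± 8.22 CPM, SD, n = 2). Summed over the 20 hnRNP genes it was 2144 and 2252 CPM (2198 ± 76.4 CPM, SD, n = 2). The median gene was at 58.6 CPM among SR genes and 43.8 CPM among hnRNP genes. Among SR genes, Srsf3 was followed by Srsf11 (127 and 137 reads), Srsf4 (112 and 136), Srsf2 (99 and 118) and Srsf6 (82 and 110). Srsf1, the founding member of the family, was the lowest SR gene, with 22 and 29 reads. Among hnRNP genes, the G-tract binding proteins Hnrnpf (218 and 245 reads) and Hnrnph2 (198 and 204) stood far above their relatives Hnrnph1 (76 and 62) and Hnrnph3 (13 and 11). The ranges of the libraries did not overlap between Hnrnph2 and Hnrnph1, or between Srsf3 and Srsf11, whereas those of Srsf11 and Srsf4 did.

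**Figure D1:**
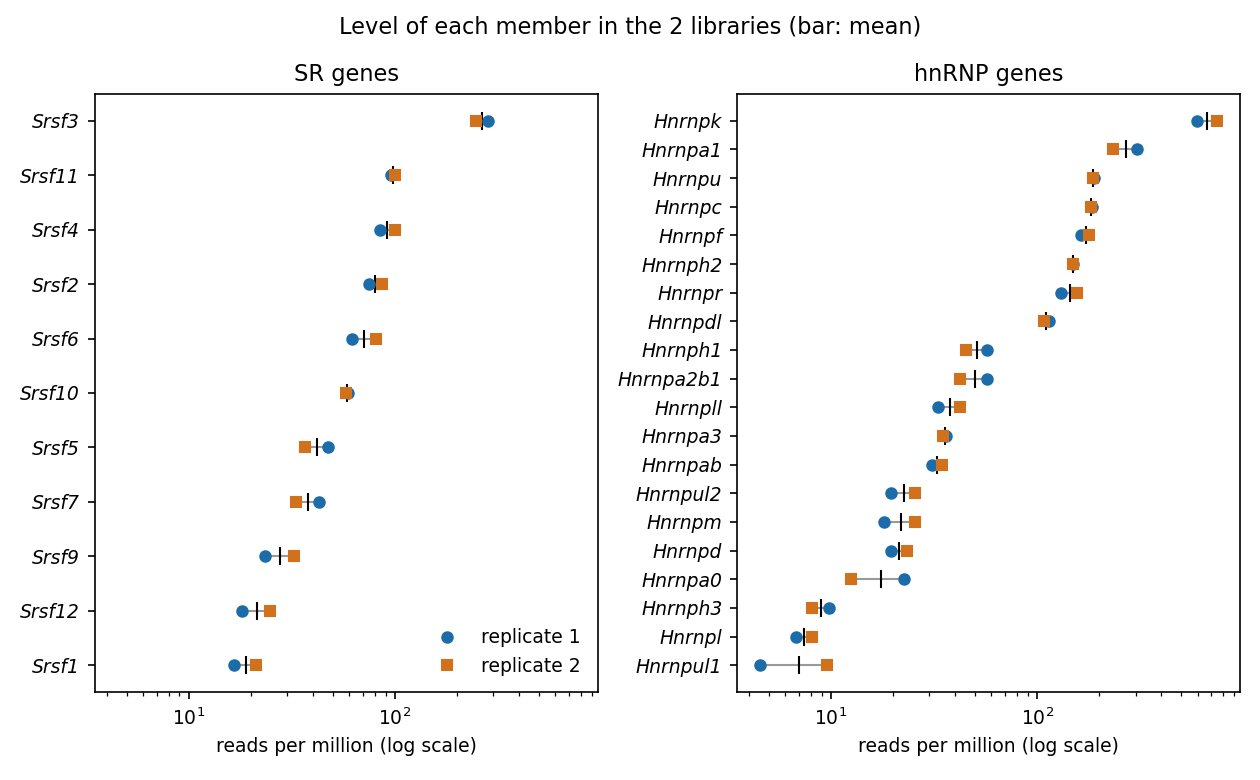
Level of each of the 31 genes in CPM on a log axis, SR genes on the left and hnRNP genes on the right, with circles for replicate 1, squares for replicate 2 and a bar at the mean. Hnrnpk is highest at 595 and 744 CPM, and Srsf3 leads the SR genes at 283 and 246 CPM.

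Read counts differed between the libraries for 2 of the 31 genes (Fisher's exact test, Benjamini-Hochberg adjusted over 11891 genes), at a background of 5.95% of all genes. Hnrnpk was higher in replicate 2 (log2 ratio of replicate 1 over replicate 2 of -0.32, adjusted p = 0.000128 in Fisher's exact test). Hnrnpa1 was higher in replicate 1 (log2 ratio 0.38, adjusted p = 0.0110 in Fisher's exact test). The smallest adjusted p of the other 29 genes was 0.330 in that exact test. With the spread estimated over the 1 group by edgeR (biological coefficient of variation 16.1%), neither was called and 0 of the 31 had an unadjusted p below 0.05 in its exact test. That spread came from the same libraries and already holds the difference being tested, so the lack of calls cannot check the Fisher result. Of all genes, 305 (2.56%) were higher in replicate 1 and 402 (3.38%) in replicate 2, a split that turned to 352 and 305 with TMM scaling and to 352 and 304 with DESeq2 size factors; both called genes kept their direction under either scaling.

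Spliced and unspliced reads of the called genes were then counted apart. Spliced reads of Hnrnpk numbered 763 in replicate 1 and 994 in replicate 2 (unadjusted p = 7.59e-07 in Fisher's exact test), and its unspliced reads 28 and 23. Spliced reads of Hnrnpa1 numbered 294 and 265 (unadjusted p = 0.128 in Fisher's exact test), while its unspliced reads, all in incomplete models, numbered 112 and 55. The higher count of Hnrnpa1 in replicate 1 was thus mostly a higher count of reads without any intron. For Srsf3, reads on annotated chains alone gave a log2 ratio of 0.38 (adjusted p = 0.0240 in Fisher's exact test). Library size was there counted from annotated chains too. Over reads of every class and whole libraries the ratio was 0.20 (adjusted p = 0.338 in the same exact test), so the denominators differ.

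Annotated chains held 43.2% and 41.9% of the reads of the 31 genes, against 69.2% and 71.5% over all protein-coding genes. New combinations of known sites held 17.3% and 18.1%, against 3.44% and 3.85%. Hnrnpk had 4 and 3 reads on annotated chains. Without it, 53.9% and 55.2% of the reads lay on annotated chains, and 2.74% and 3.18% on new combinations, which is below the share over all protein-coding genes. The other extreme was Srsf6, Srsf3 and Srsf4, where annotated chains held most reads, as they did in 12 of the 27 genes with at least 20 reads when the libraries were pooled. New splice sites held 3.92% of reads in replicate 1 and 7.56% in replicate 2, and here Hnrnpk was filed differently by library: the same chain of 14 introns was filed as a new combination in replicate 1 (136 reads) and as a new splice site in replicate 2 (203 reads). Model classes of Hnrnpk were therefore not compared between libraries, and chains were matched by their introns.

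**Figure D2:**
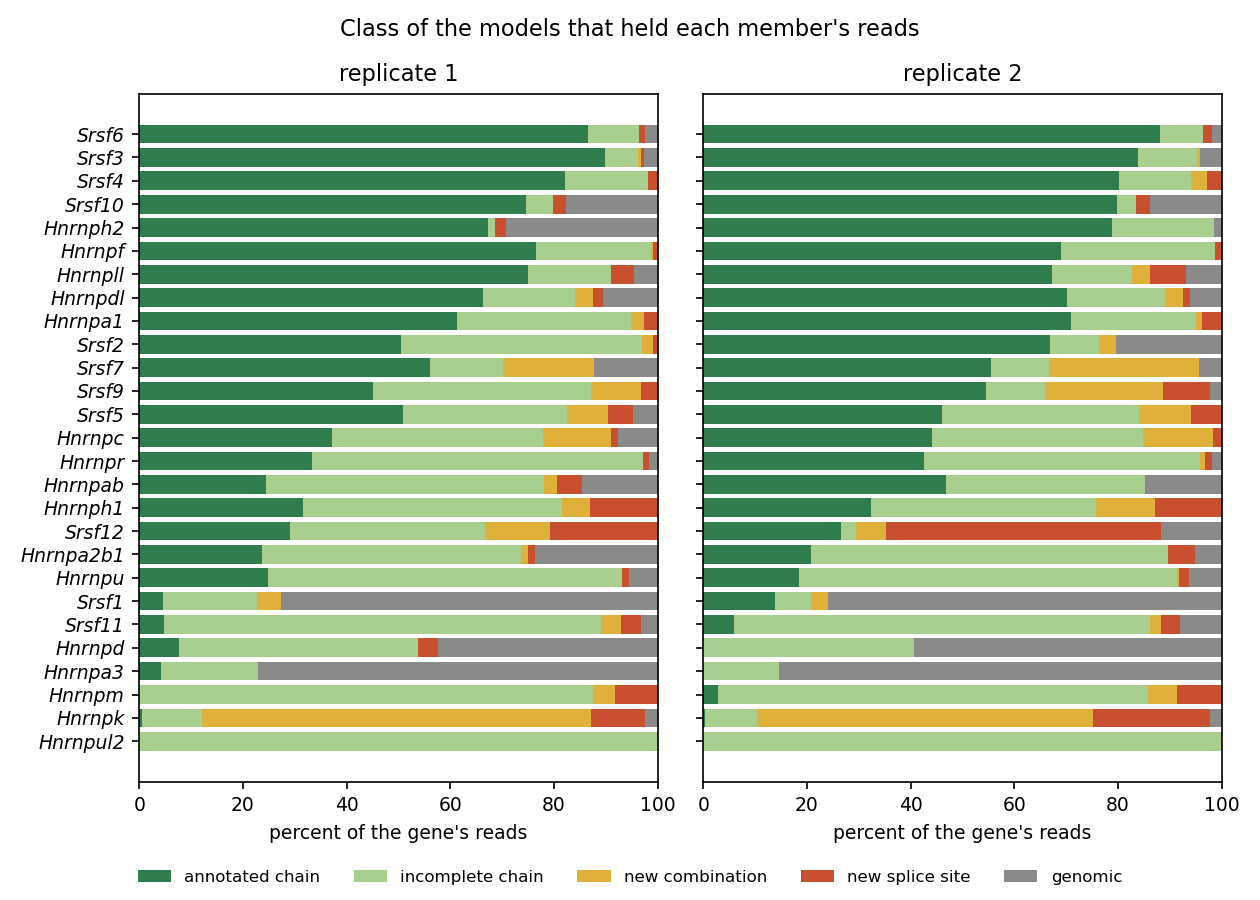
Percent of each gene's reads in each class of transcript model, with 1 panel per library, for the 27 genes with at least 20 reads in each. Annotated chains (dark green) fill most of the bar for Srsf6, Srsf3 and Srsf4 and almost none of it for Hnrnpk.

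Among the genes with at least 20 reads, most reads pooled over the libraries had no intron in Hnrnpa3, Hnrnpd, Hnrnpul2 and Srsf1, although in Hnrnpd 14 of 26 reads were spliced in replicate 1 and 13 of 32 in replicate 2. Hnrnpa0, under that minimum, is annotated with 1 exon and no intron, so none of its 30 and 17 reads could be spliced. For Srsf1, 16 of 22 and 22 of 29 reads were genomic, and for Hnrnpa3 37 of 48 and 41 of 48. Their splicing could hardly be measured at this depth. The class given to unspliced reads also differed between libraries: unspliced reads of Hnrnph2 were genomic in 58 cases and incomplete in 0 in replicate 1, and genomic in 3 and incomplete in 36 in replicate 2. Whether reads were counted by strand is not given in the sources used here, so reads of genes that overlap others on the opposite strand, such as Hnrnpu (Cox20, 131 and 82 reads) and Srsf2 (Mettl23, 95 and 98 reads, and Mfsd11, 63 and 88 reads), cannot be told apart from them with certainty. Copies elsewhere in the genome are a further limit: 30.1% of the 25-base words of Hnrnpa1 and 39.2% of those of Hnrnpf occur in other annotated transcripts.

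Transcripts annotated as NMD targets were read at a low but measurable level. Of reads on annotated chains, 40 of 1694 (2.36%, exact 95% interval 1.69 to 3.20) and 49 of 1756 (2.79%, 2.07 to 3.67) lay on them, a mean of 2.58 ± 0.303% (SD, n = 2), and no difference between the libraries was detected (p = 0.453 in Fisher's exact test). Over all protein-coding genes the share was 0.308% and 0.321%. As a mean over genes with at least 20 annotated reads in each library it was 1.33%, against 0.576% over all protein-coding genes. Intervals and limits here cover counting error only, since any reads that are copies of the same molecule would not be independent. The share was 2.70% and 3.73% among SR genes and 2.12% and 2.13% among hnRNP genes. The reads came from few genes: Srsf9 (9 and 18), Hnrnpa1 (12 and 15), Hnrnpdl (7 and 6) and Srsf3 (8 and 5) held nearly all of them.

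A poison exon was defined here as an internal exon of an annotated NMD transcript that overlaps no exon of a protein-coding transcript and is skipped by one. Such exons are annotated in Srsf3, Srsf7, Srsf9, Srsf11, Hnrnpd, Hnrnpl and Hnrnpll. Below, 5 of them are printed from their first base to the annotated in-frame stop, which is in capitals, to show how soon each exon ends the reading frame. The bases are those of the GENCODE M21 transcripts on build mm10, 5′ to 3′ on the gene's strand.
Srsf9 exon of 358 bases, chr5:115328347-115328428, plus strand: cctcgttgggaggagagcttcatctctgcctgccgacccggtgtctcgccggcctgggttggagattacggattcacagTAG
Srsf3 exon of 456 bases, chr17:29039454-29039487, plus strand: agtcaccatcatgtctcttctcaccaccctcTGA
Srsf7 exon of 460 bases, chr17:80205054-80205081, minus strand: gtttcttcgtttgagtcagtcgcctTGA
Srsf11 exon of 117 bases, chr3:158023310-158023359, minus strand: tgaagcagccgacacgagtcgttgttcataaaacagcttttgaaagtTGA
Hnrnpll exon of 83 bases, chr17:80044976-80045022, minus strand: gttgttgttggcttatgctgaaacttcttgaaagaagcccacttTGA
The stop follows 79 bases into the Srsf9 exon, 31 into that of Srsf3, 25 into that of Srsf7, 47 into that of Srsf11 and 44 into that of Hnrnpll. In Srsf9, Srsf3 and Srsf7 the exon then runs on for 276, 422 and 432 bases.

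Srsf9, a small SR protein gene related to Srsf1, was the exception among them. Of reads that showed either the exon or its skipping, 12 of 17 in replicate 1 (70.6%, exact 95% interval 44.0 to 89.7) and 26 of 32 in replicate 2 (81.3%, 63.6 to 92.8) contained the 358-base exon at chr5:115328347-115328704. Most molecules of Srsf9 that could be judged in either library thus held the poison exon, and no difference between the libraries was detected (p = 0.480 in Fisher's exact test). The reads with the exon were also spliced differently further on. A 90-base exon at chr5:115331450-115331539, which is not in the coding transcript Srsf9-201, was read in 9 of 12 and 18 of 24 molecules that held the poison exon and in 0 of 5 and 0 of 6 that skipped it. With 5 and 6 molecules in the skipping form, a share of up to 52.2% and 45.9% is within its exact interval. The leading chain of the gene was that of the NMD transcript Srsf9-205 (9 and 18 reads), ahead of the coding chain of Srsf9-201 (5 and 6 reads). Srsf9 as a whole is a low gene, at 31 and 44 reads.

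In the other genes the poison exon was rare or was not detected at this depth. In Srsf3 the 456-base exon at chr17:29039454-29039909 was included in 9 of 358 reads (2.51%) and 5 of 317 (1.58%), and no difference between the libraries was detected (p = 0.431 in Fisher's exact test). The coding chain of Srsf3-202 has 164 codons and that of Srsf3-201, which holds the exon, 124. In Srsf11 the 117-base exon was included in 2 of 99 and 5 of 105 reads, and in Hnrnpll the 83-base exon in 1 of 38 and 1 of 48. The 460-base exon of Srsf7 was read in 0 of 46 and 0 of 36 reads, which allows shares of up to 7.71% and 9.74% by the exact interval. The same was 0 for a further 109-base exon of Srsf11 (0 of 97 and 0 of 100) and for overlapping exons of 107 and 71 bases in Hnrnpd (0 of 14 and 0 of 13), which lie 3′ of the stop. Hnrnpl had too few reads to test. The definition leaves out a 268-base exon of the NMD transcript Srsf6-201, as it overlaps an exon of Srsf6-202, typed as protein-coding. That exon has its annotated stop after 149 bases and was included in 0 of 73 and 2 of 99 reads. For none of the 8 poison exons tested in 6 genes was inclusion called different (Fisher's exact test, 0 also at an unadjusted p below 0.05), at a background of 0% of 676 exons. Their median inclusion was 1.04%, against 0 over all 676, of which 55 (8.14%) reached 10% and 4 (0.592%) reached 50%.

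Reads need not match an annotated NMD chain from end to end to carry its splicing. Spliced reads were counted that hold any intron found in an NMD transcript but in no coding transcript of the gene. Transcripts of other types were not considered, so such an intron can also occur in them. Srsf9 again led among genes with at least 20 spliced reads in each library, with 19 of 27 (70.4%, exact 95% interval 49.8 to 86.2) and 35 of 43 (81.4%, 66.6 to 91.6). Hnrnpdl, a relative of Hnrnpd, followed with 10 of 135 (7.41%) and 17 of 138 (12.3%). Hnrnpa1 had 14 of 294 and 19 of 265, Srsf11 8 of 121 and 8 of 125, Srsf4 4.95% and 4.84% of such reads, and Srsf3 10 of 367 and 6 of 322. In Srsf5, Srsf7 and Hnrnpu no such read was found. Srsf1, under that minimum, had 1 of 6 and 2 of 7. Over the 15 of the 31 genes that have such an intron the share was 3.26% and 4.19%, against 2.58% and 2.65% over the other protein-coding genes that have one. Srsf9, a low gene, gave 19 of the 74 and 35 of the 103 such reads of the 15 genes. Among genes with at least 20 spliced reads in each library, the median was 2.20% in 12 of these genes and 0.415% in 1771 genes in all.

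**Figure D3:**
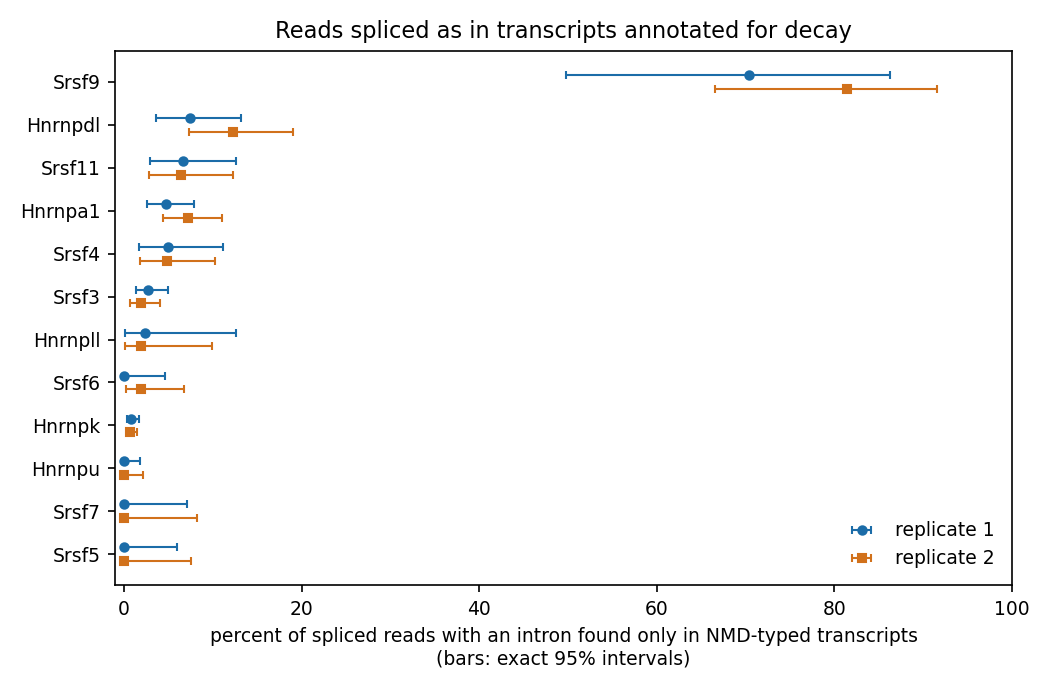
Percent of spliced reads that hold an intron found in an annotated NMD transcript but in no coding transcript of the gene. Shown are 12 genes with at least 20 spliced reads in each library, with exact 95% intervals. Srsf9 stands at 70.4% and 81.4%, and the next gene, Hnrnpdl, at 7.41% and 12.3%.

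In Hnrnpa1 the reads of this kind used an intron that passes over the last exon of the coding transcripts to an exon of the NMD transcript 2090 bases further on (13 of 290 and 19 of 261 reads). Few of them held the alternative coding exon of 159 bases described below: 0 of 43 and 2 of 42 reads with that exon used the intron, against 13 of 237 and 17 of 212 without it. In Hnrnpdl a 105-base exon of the NMD transcript was included in 8 of 118 and 9 of 119 reads.

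Hnrnpk had a feature that set it apart from the annotation in nearly all of its reads. Its shortest coding exon, 16 bases at chr13:58393853-58393868 on the minus strand, was not read with both annotated introns in any of 747 and 974 reads across the region, which allows shares of up to 0.493% and 0.378% by the exact interval. Instead 692 of 747 (92.6%, exact 95% interval 90.5 to 94.4) and 919 of 974 (94.4%, 92.7 to 95.7) used an unannotated intron of 285 bases. It begins 16 bases downstream of the annotated donor, so that the exon before is longer by as many bases as the short exon has. The annotated exon and the added bases, chr13:58394060-58394075 on the minus strand, are shown because the models exchange one for the other. The bases are those of the GENCODE M21 transcripts on mm10, 5′ to 3′.
Hnrnpk annotated exon, chr13:58393853-58393868, minus strand: ggtggttctggatatg
Hnrnpk bases added to the exon before, chr13:58394060-58394075, minus strand: gttgagtatcaataat
The runs are equally long and share the base at 8 of 16 positions. The unannotated intron begins with GT, as does the annotated intron before the short exon, and it ends at the AG of the annotated intron after the short exon.

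A smaller number of Hnrnpk reads added 5 bases to the exon before (23 and 23 reads) or joined the annotated exons directly without the short exon (22 and 15 reads). The tables hold models and not the bases of the reads, so whether the molecules carried the short exon or the added bases was not tested. The absence of the short exon has a background among other genes. Of annotated exons of at most 20 bases that no coding transcript skips, 29 of 43 (67.4%) were included in under 5% of reads, against 15 of 259 (5.79%) at 21 to 30 bases, 5 of 1883 (0.266%) at 31 to 50 bases and 16 of 16621 (0.0963%) at 51 to 100 bases. Low inclusion of the shortest exons was thus common across these libraries, and the Hnrnpk exon is the only one of that kind tested in the 31 genes. The annotated chains of Hnrnpk that hold the exon could not be matched by these reads.

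**Figure D4:**
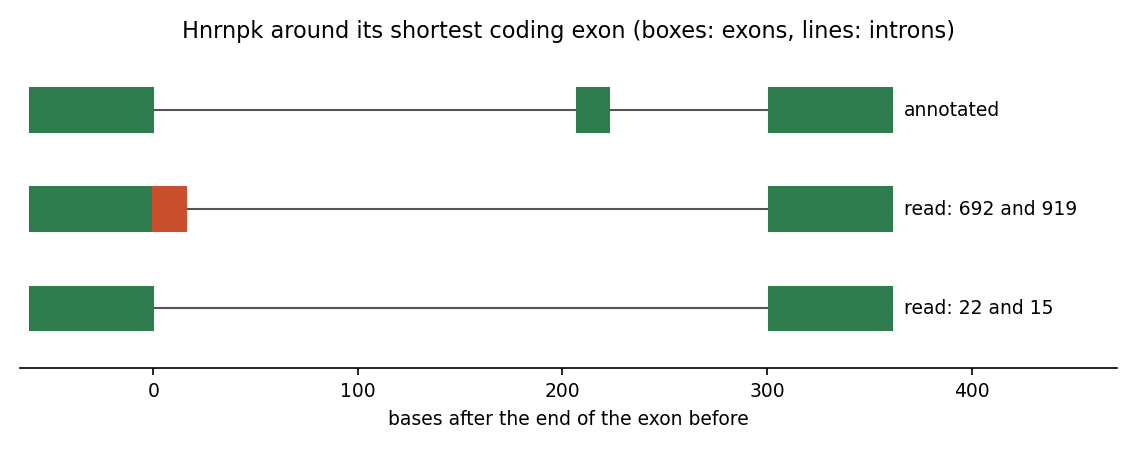
Exons (boxes) and introns (lines) of Hnrnpk around its 16-base exon, drawn to scale in bases from the end of the exon before, for the annotation and for 2 of the forms read, with the number of reads in replicates 1 and 2. The form read 692 and 919 times has 16 bases added to the exon before (red) and no short exon.

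The rest of Hnrnpk was read in a small set of chains, built from 2 choices. The less used first exon was joined in 210 of 675 (31.1%) and 265 of 887 (29.9%) reads. The less used acceptor of the last exon, which makes that exon 60 bases longer, was taken in 294 of 762 (38.6%) and 365 of 992 (36.8%) reads. The longer form meets a stop codon (capitals) soon after its acceptor, which gives the protein another end.
Hnrnpk last exon, longer form up to its stop, chr13:58392443-58392476, minus strand: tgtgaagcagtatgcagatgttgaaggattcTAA
The acceptor was taken at similar rates after either first exon, in 172 of 449 (38.3%) and 236 of 604 (39.1%) reads with the more used first exon and in 75 of 210 (35.7%) and 87 of 265 (32.8%) reads with the less used one; the exact intervals overlap in both libraries. The 4 combinations made up the main chains of 14 introns, with 238, 136, 119 and 66 reads in replicate 1 and 317, 203, 154 and 73 in replicate 2.

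A coding exon of 72 bases in Hnrnpk was included in 654 of 703 (93.0%) and 857 of 924 (92.7%) reads. Reads without it took the longer last exon in 24 of 49 (49.0%) and 32 of 67 (47.8%) cases, against 238 of 654 (36.4%) and 310 of 855 (36.3%) with it. The share was higher without the exon in both libraries, while the exact intervals overlap in each. The 44-base coding exon was almost always present, in 692 of 698 and 913 of 920 reads.

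Alternative coding exons known to set apart protein forms of other hnRNPs were read in both forms in each library. Hnrnpa1 included its 159-base exon, the insert of the longer A1-B form, in 44 of 285 (15.4%) and 43 of 258 (16.7%) reads. Hnrnpa2b1 included the 36-base exon that sets form B1 apart from A2 in 3 of 36 (8.33%) and 2 of 32 (6.25%) reads. Hnrnpc used a donor site 39 bases further on, which gives form C2 in place of C1, in 75 of 203 (36.9%) and 73 of 217 (33.6%) reads. At each of these choices the form without the insert was the more frequent one in both libraries. The inserts are given as the coding bases by which the forms differ, from GENCODE M21 transcripts on mm10, 5′ to 3′.
Hnrnpa2b1 exon of 36 bases, chr6:51467391-51467426, minus strand: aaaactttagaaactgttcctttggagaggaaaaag
Hnrnpc 39 bases between sites, chr14:52081789-52081827, minus strand: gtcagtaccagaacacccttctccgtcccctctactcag
Both lengths are multiples of 3, so either form keeps the reading frame.

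Several further choices were read in hnRNP genes. Hnrnpc included a 26-base noncoding exon in 129 of 179 (72.1%) and 144 of 191 (75.4%) reads, and Hnrnph2 a 45-base noncoding exon in 100 of 136 (73.5%) and 119 of 164 (72.6%). Hnrnpr, which is related to Syncrip, split its reads over overlapping exons of 169 and 166 bases that hold coding sequence (38 and 59 reads, and 46 and 52 reads) and a form that skips both (65 and 66 reads). Of all 149 and 177 such reads the 169-base exon thus held 25.5% and 33.3%, with overlapping exact intervals. Hnrnpc also split between an acceptor with 60 of 152 and 79 of 171 reads and others 21 bases away (70 and 67 reads) and 24 bases away (22 and 24 reads), and the leading acceptor differed by library. Hnrnph1 included a 50-base exon in 60 of 62 and 50 of 54 reads, Hnrnpd a 147-base coding exon in 11 of 13 and 9 of 10, and Hnrnpab a 141-base coding exon in 3 of 31 and 3 of 38. A further coding exon of Hnrnpa2b1, of 120 bases, was included in 15 of 19 and 9 of 13 reads, so there the longer form was the more frequent.

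SR genes also had coding choices. Srsf7, an SR protein with a zinc knuckle, included a 36-base exon in 40 of 49 (81.6%) and 32 of 42 (76.2%) reads, and a donor site 9 bases away was used in 10 of 49 and 12 of 41. Srsf10 used an acceptor 3 bases away in 15 of 60 and 17 of 66 reads, and Srsf5 one 3 bases away in 5 of 38 and 8 of 33. Srsf10 also split between 2 ends, the less used one with 23 of 61 (37.7%) and 21 of 66 (31.8%) reads. Srsf12 joined its annotated acceptor in 8 of 15 and 12 of 30 reads, and an unannotated one 60 bases further on in 7 and 18 reads. The 60 bases left out by the unannotated junction are in the coding sequence of Srsf12-201 and are a multiple of 3; pooled over the libraries the chain with this junction led, with 4 of 24 and 15 of 30 reads, but in replicate 1 it stood behind the annotated chain (6 reads) and the unspliced reads (9). The Srsf7 exon and the Srsf12 stretch are shown as coding sequence that some molecules lack, from GENCODE M21 transcripts on mm10.
Srsf7 exon of 36 bases, chr17:80202169-80202204, minus strand: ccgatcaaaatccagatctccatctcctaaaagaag
Srsf12 60 bases between sites, chr4:33230924-33230983, plus strand: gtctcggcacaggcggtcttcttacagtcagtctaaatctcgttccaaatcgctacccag

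Of 43 annotated cassette exons in 18 of the genes, 0 were called between replicates 1 and 2 (Fisher's exact test, Benjamini-Hochberg adjusted), at a background of 0.0489% of 6140 exons.

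**Figure D5:**
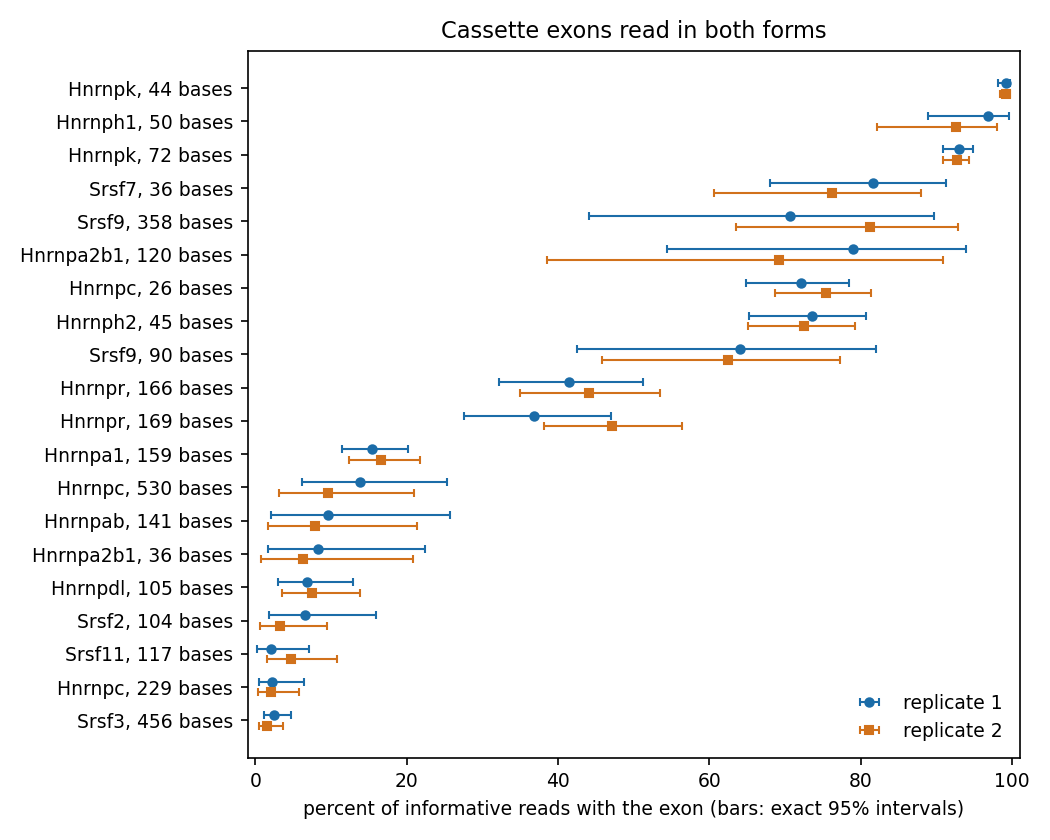
Percent of informative reads that include each cassette exon with at least 5 reads that include it and 5 that skip it over both libraries, with exact 95% intervals, circles for replicate 1 and squares for replicate 2; for Hnrnpr, reads of the overlapping exon are left out of each share. The intervals of the libraries overlap for every exon plotted, from Hnrnpk (44 bases, 99.1% and 99.2%) to Srsf3 (456 bases, 2.51% and 1.58%).

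Intron retention was rare. An intron was counted as retained where 1 exon of a model covers it and 10 bases on each side; the outer ends of annotated models are those of the annotation, so a read shorter than its model can count. Of 191 introns tested in 24 of the genes, 166 were retained in 0 reads and 6 (3.14%) in at least 10%, against 1235 of 63944 (1.93%) over all genes. No intron of these genes was called different (Fisher's exact test between the replicates, 0 also at an unadjusted p below 0.05), at a background of 0.0438% of 63944 introns.

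The highest values were in introns that some annotated transcripts splice and others do not. In Srsf2, an SR protein whose gene has a spliced 3′ untranslated region in some transcripts, the 502-base intron at chr11:116850354-116850855 was unspliced in 92 of 99 (92.9%) and 108 of 118 (91.5%) reads; it lies within the last exon of Srsf2-201, the leading chain. In Hnrnpf an intron at chr6:117906840-117907148 was covered in 48 of 49 and 73 of 73 reads. It leads to a 60-base exon that was included in 1 of 94 and 0 of 92 reads. The count leaves out 93 and 92 reads that joined the same donor to a later exon, so it is not a share of all reads. A donor 369 bases further on was used in 49 of 153 and 73 of 175 reads. In Srsf5 a 21-base intron at chr12:80945581-80945601 was covered in 49 of 49 and 36 of 36, where it lies within the first exon of the leading chain Srsf5-201. Lower values were those of Hnrnph1 at chr11:50377803-50378290, with 8 of 32 and 6 of 30 reads, and of Hnrnpr at chr4:136339298-136339418, with 12 of 65 (18.5%) and 16 of 103 (15.5%). In Hnrnpab the intron at chr11:51606587-51606666 was retained in 0 of 12 and 5 of 28 reads, so its value came from replicate 2 alone. Of reads on annotated chains, 30 (1.77%) and 33 (1.88%) lay on transcripts typed as retained intron, a mean of 1.83% over the libraries with no difference detected (p = 0.899 in Fisher's exact test). Over all protein-coding genes this share was 1.09% and 1.02%. Over reads of every class it was 0.775% against 0.744%, and as a mean over genes 1.93% against 1.73%. Hnrnpr held 12 and 16 of these reads, as many as retained its intron above, and Srsf11 held 4 and 8. Those of Hnrnpr had no intron at all and lay on Hnrnpr-211, a model of 1 exon.

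The leading chain of a gene held a median of 39.9% of its reads outside the genomic class over 24 of the genes, against 69.6% over 6091 protein-coding genes. It matched no complete annotated chain in 8 of 24 (33.3%), against 17.5% of all. The 8, on pooled reads, were Hnrnpk and Srsf12, described above, and Hnrnpa2b1, Hnrnpm, Hnrnpr, Hnrnpu, Hnrnpul2 and Srsf11, where the leading chain was an incomplete one.

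The leading share differed between libraries in 1 of the 24 genes (Fisher's exact test, Benjamini-Hochberg adjusted), at a background of 3.30%. This was Srsf2, where the chain of Srsf2-201 held 45 of 99 reads (45.5%) in replicate 1 and 74 of 94 (78.7%) in replicate 2 (adjusted p = 0.000154 in Fisher's exact test). Unspliced Srsf2 reads were filed as incomplete in 35 cases and genomic in 0 in replicate 1, and as incomplete in 0 and genomic in 24 in replicate 2, and genomic reads are outside this count. Among spliced reads only, the shares were 45 of 64 (70.3%) and 74 of 94 (78.7%), with an adjusted p of 0.974 in the same exact test. On that basis 0 of 22 genes were called and 2 had an unadjusted p below 0.05 in Fisher's exact test, at a background of 0.500% of 5797 genes.

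Other genes of the pathway, taken by list, gave 0 calls in any of the 5 lists in the same exact test of read counts, against 5.95% of all genes; 3 genes, Luc7l, Pnisr and Pcbp2, had an unadjusted p below 0.05. The 10 SR-like genes summed to 686 and 687 CPM, led by Srrm2 (250 and 304 reads) and Son (255 and 240 reads), which build nuclear speckles. The 6 kinases that phosphorylate SR proteins summed to 259 and 237 CPM, led by Srpk2 (150 and 128 reads). Of the 6 spliceosome recruitment genes, at 406 and 400 CPM, Sf3b1, a U2 snRNP subunit, had 230 and 247 reads. Among other hnRNP-like genes, Pcbp1, a KH-domain relative of Hnrnpk, had 129 and 106 reads. The 12 genes of the NMD machinery summed to 463 and 470 CPM, of which Eif4a3, an exon junction complex subunit, gave 319 and 357 reads, while Upf1, the central helicase of the pathway, had 6 and 6.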

How the data were processed

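The deposited values are counts of long reads per TALON transcript model in 1 library each, made by the authors on build mm10 with GENCODE M21, per the file headers and the text deposited with the files; no aligner, platform or strand setting is given in the sources used here. Model structures came from the deposited annotations. Reads were summed per gene (CPM = reads per 1000000 library reads; floor of 3 reads). Introns, exons and chains were matched between libraries by coordinates. Tests compared the libraries by Fisher's exact test, two-sided, with Benjamini-Hochberg adjustment over all features at 0.05, for genes with at least 10 reads, exons and introns with at least 20 informative reads over both libraries, and leading chains with at least 20 reads in each. Intervals are exact (Clopper-Pearson, 95%). Genes were described where both libraries had 20 reads or more; those with a poison exon, a retained intron at 10% or more, several chains or a call were described in detail. The genes and lists were chosen with earlier results of these data known. Alternatives were TMM sizes (edgeR 4.0.16), DESeq2 1.42.0 size factors, edgeR's exact test with the dispersion of the 1 group, model classes and minimums. Cassette exons, introns of NMD but not of coding transcripts, and short exons were added after the data were seen. On simulated data for 11891 genes, the test recovered 150 of 200 genes changed by 2-fold and 200 of 200 changed by 4-fold. The simulation held counting error only and took its changed genes from those well above the minimum of 10 reads. Recovery near that minimum was not tested. Python 3.11.15, scipy 1.17.1 and R 4.3.3 were used. A gene of the list of other hnRNP-like proteins is not reported here.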

Additional observations from a re-analysis of the deposited data

How the results depend on the processing

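No paired analysis was possible because the libraries form 1 group. Of the 31 genes, Hnrnpa1 and Hnrnpk were called under TMM sizes, DESeq2 size factors and no filter. Without genomic and incomplete models the calls were Hnrnpk and Srsf3; on annotated models alone 1 gene, Srsf3, was called, and Hnrnpk had too few reads to test. Hnrnpa1 lost its call in both settings, which leave out its unspliced incomplete reads. Its log2 ratios there were 0.23 and 0.25 (adjusted p = 0.384 and 0.340, Fisher's exact test). Library sizes for the gene test were counted from the same models in both settings. With edgeR's exact test, whose spread came from the same libraries, 0 of the 31 were called. Over all genes it called 50, against 707 in the Fisher test and 425 on annotated models. The leading chain call fell to 0 among spliced reads. No poison exon or retained intron of these genes was called under any alternative run. The summed SR level was 579 CPM without genomic and incomplete models and 529 CPM on annotated models; the hnRNP sum was 1408 and 751 CPM. The NMD share was 1.09% over reads of every class and 1.33% as a mean over genes; the retained-intron share was 0.775% and 1.93%. In single libraries the SR sum was 807 to 818 CPM, the hnRNP sum 2144 to 2252 CPM, the NMD share 2.36 to 2.79% and the retained-intron share 1.77 to 1.88%. With 1 group, no condition was compared. Depth limits the 4 genes under 20 reads and the genes read mostly without introns.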
